A study of Capra hircus with 72 samples.

Results

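Skeletal muscle of goats transported by road for 180 min was compared with muscle of goats that stayed in pens, in the set of libraries that the deposited tables mark 24H. The comparison used 18 of the 72 RNA-seq libraries of the series, chosen by the goat number and group tag in their titles, and the 1961 genes that the authors listed for it. The 9 transported goats carried numbers 10 to 18 and the 9 control goats numbers 1 to 9, with 1 muscle library per goat. All were intact male Spanish goats (Capra hircus), 8 months old, kept off feed the night before and slaughtered afterwards. The design text describes 54 goats handled on a pair of days, no label gives the day of a library, and the labels do not define the 24H mark or name the muscle. The series asks how stress before slaughter bears on gene expression in tissue that becomes meat.

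Loading, movement and social mixing activate the hypothalamic-pituitary-adrenal axis, and the adrenal cortex releases glucocorticoids. In muscle these hormones enter the fibre and bind the glucocorticoid receptor, which moves to the nucleus and raises transcription of genes such as FKBP5, whose product in turn dampens the receptor. Glucocorticoids also favour amino acid release and protein breakdown in muscle, interact with the circadian clock and restrain inflammatory and interferon genes, and a fast shares part of this programme through FOXO factors. Muscle fibres are classed as slow or fast by their myosin and troponin isoforms, and capillary endothelium, fibroblasts, satellite cells and resident macrophages lie between them.

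Among the listed genes, 955 were higher and 1006 lower after 180 min. The list itself is a selection, since the authors printed only genes with an unadjusted p under 0.05, which were 13.3% of the 14056 genes they had adjusted. The authors' deposited adjusted p was under 0.05 for 282 genes, 2.01% of those adjusted. To be described as risen or fallen a gene also had to have an edgeR quasi-likelihood adjusted p under 0.05 within the list. In all 148 genes rose, 1.05% of the 14056, and 132 fell, 0.939%; both together are 1.99%. Risen genes had a median log2 change of 0.81, with 55 past 1, and fallen genes a median of -0.89, with 52 past 1 in size. A stricter rule, edgeR adjusted over all 14056 genes, left 17 risen and 7 fallen genes, 0.171% in all. The named genes among them are FKBP5, BAG2, PKDCC, PITX3, ASCC1, LIPG, LRCH4, GDF10, PHC2, NUDT7, NUP50, RAP1A and CDC5L on the higher side and EPHX2, FIBIN, HBEGF, KIAA0408 and RASSF4 on the lower side. Of the listed genes 365 carry no symbol in the deposited table, 46 of the called ones included, and they are not described one by one.

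The libraries held 11.28 to 19.61 M counts (M for 1e+06) after 180 min and 11.75 to 16.15 M in controls, with a median of 14.66 M in each group. The listed genes took 12.24 to 14.68% of those counts after transport and 12.02 to 19.07% in controls, where goat 7 was highest. The title and group tag of goat 9 say control, while its treatment and description fields name 180 min of transport. Goat 9 is used as a control. Without goat 9, 148 genes rose and 132 fell; with goat 9 counted as transported, 136 rose and 92 fell. These counts keep the authors' adjusted p, made with goat 9 as a control, and so could not exceed the 282 genes that passed it. Genes past the refitted edgeR test within the list were 1538 with goat 9 as a control, 1002 without goat 9 and 471 with goat 9 as transported. Myosin genes of slow and fast fibres were among the most abundant listed transcripts, with MYH7 at 1760 FPKM after 180 min and 2822 FPKM in controls, as the tissue label implies. The tissue is a mixture, so fewer cells of a type and less RNA per cell cannot be told apart.

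The rise with the smallest adjusted p was that of FKBP5, the cochaperone of HSP90 that lowers the hormone affinity of the glucocorticoid receptor (ENSCHIG00000014746, chromosome 23, 39071133 to 39140144 as the deposited table gives it). Its normalized counts in goats 10 to 18 were 767.8, 6023, 6161, 2763, 546.7, 996.2, 1429, 3888 and 3832, against 378.1, 601.2, 583.0, 577.2, 338.6, 612.3, 564.9, 485.0 and 538.3 in control goats 1 to 9. Of the transported goats 8 lay above every control and goat 14 lay inside the control range; goats 11 and 12 were highest and goats 17 and 18 next. The log2 change was 2.50 ± 0.40 (SE, n = 9 each), with an edgeR adjusted p of 0.0023 within the list, beside 1.7e-07 in the authors' deposited table. BAG2, a cochaperone of HSP70 that inhibits the ubiquitin ligase CHIP (chromosome 23, 45658314 to 45667362), averaged 3215 ± 1055 normalized counts after 180 min and 1098 ± 422.9 in controls (SD, n = 9 each). Only goat 15, at 1586, lay within the controls, which reached 1853 in goat 7. The log2 change of BAG2 was 1.55 ± 0.23 (edgeR adjusted p = 0.0023).

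PITX3, a homeodomain transcription factor that is active in differentiating muscle (chromosome 26, 28794557 to 28805442), ranged from 376.7 to 1393 normalized counts after 180 min with a median of 943.6, against 50.51 to 442.6 with a median of 204.1 in controls. Its log2 change was 2.16 ± 0.39, and 8 of 9 transported goats were above every control. PKDCC, a secreted tyrosine kinase (chromosome 11, 24352326 to 24364366), ranged from 2304 to 10080 after transport and from 1190 to 2965 in controls, a log2 change of 1.43 ± 0.24. ASCC1, a subunit of a transcriptional coactivator complex (chromosome 28, 17331878 to 17445938), rose by 2.41 ± 0.45, and its transported goats fell into high values in goats 12, 16 and 18, at 3344, 3238 and 3550, and values of 401.6 to 1433 in the other 6. ELL2, a transcription elongation factor of RNA polymerase II, rose by 1.65 ± 0.36, with 7 of 9 goats above every control.

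In 8 called genes, 0.0569% of the genes adjusted, every transported goat lay beyond every control goat. PHC2, a Polycomb repressor subunit (chromosome 2, 15350823 to 15398463), had 294.1 to 577.1 normalized counts after 180 min and 222.9 to 282.6 in controls, and rose by 0.75 ± 0.13. NUP50, a nuclear pore protein (chromosome 5, 114514197 to 114531084), had 495.9 to 695.6 after 180 min and 336.9 to 477.1 in controls, and rose by 0.47 ± 0.09. EPHX2, the soluble epoxide hydrolase that degrades epoxy fatty acids (chromosome 8, 74383374 to 74458164), had 98.1 to 154.1 after 180 min and 161.4 to 338.7 in controls, and fell by 0.97 ± 0.15 on the log2 scale. HBEGF, a membrane-anchored ligand of the EGF receptor (chromosome 7, 58955612 to 58967341), had 71.56 to 193.8 after 180 min, lowest in goats 12, 11 and 10, and 208.3 to 672.1 in controls, highest in goat 8, and fell by 1.19 ± 0.23. The other genes of this kind with a symbol, chosen after their values were seen, were GDF10 (log2 change 2.69 ± 0.47), FAM110B (-1.23 ± 0.25) and EGFLAM (-1.19 ± 0.34), which lay below the mean of 100 normalized counts set for naming.

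**Figure D1:**
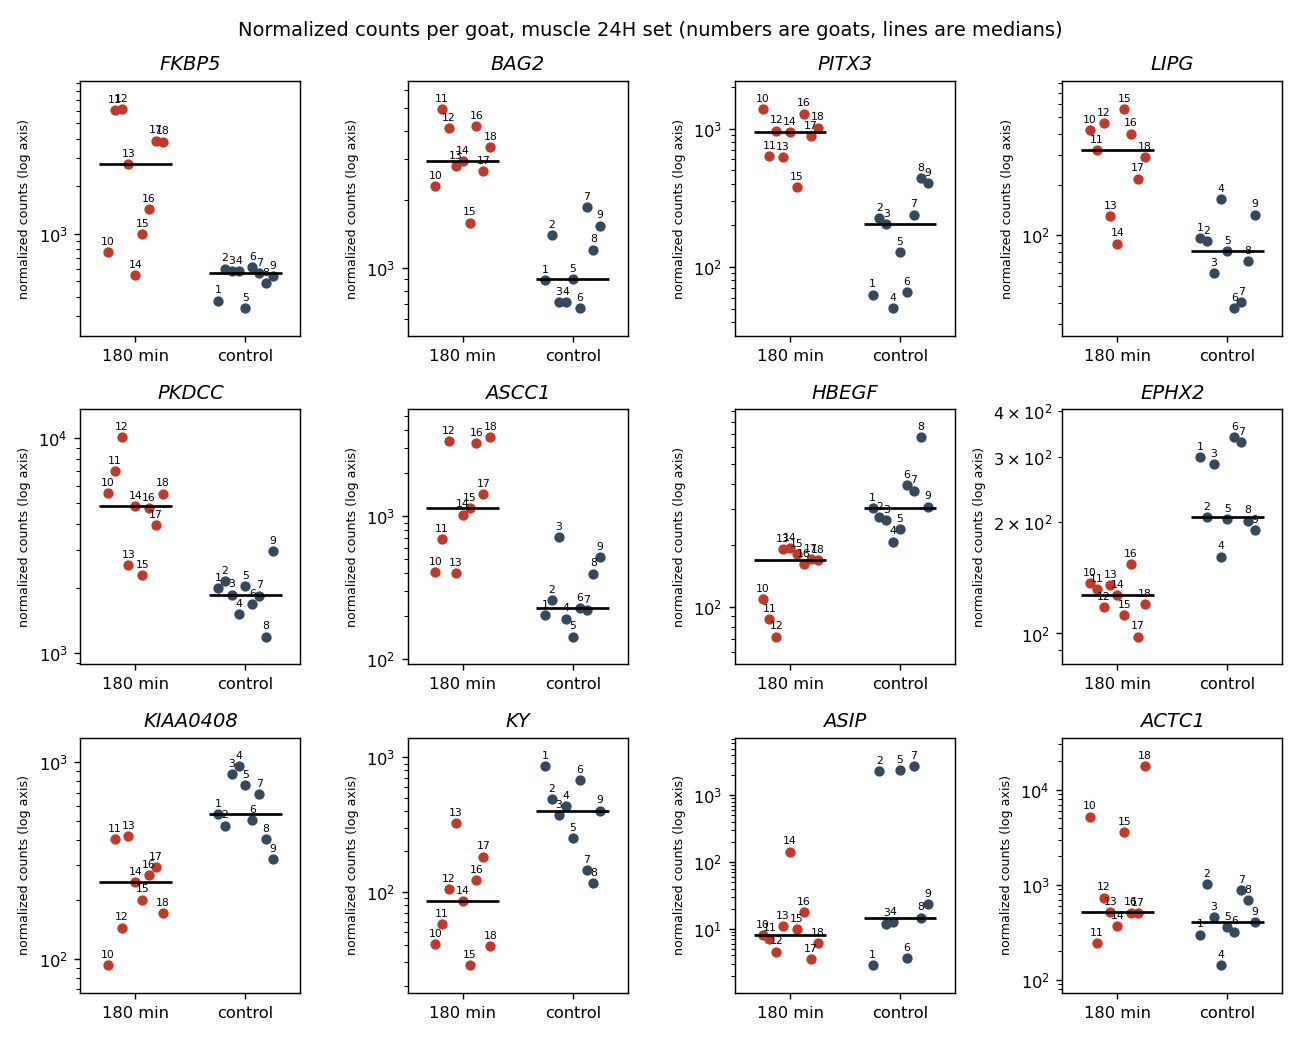
Normalized counts (log axis) of 12 genes in each goat of the 180 min group (red, left) and the control group (blue, right); numbers are goats and lines are medians. FKBP5 spans 546.7 to 6161 after 180 min and 338.6 to 612.3 in controls, EPHX2 and HBEGF do not overlap between groups, and ASIP and ACTC1 are each high in 3 goats of one group.

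Of 33 genes known to respond to glucocorticoids that have a symbol in the goat RefSeq table, 12 were listed, 10 of them higher, and 6 rose while none fell, with a median log2 change of 0.94 beside -0.30 over all listed genes. For this list and those below, the share over all genes adjusted was 13.3% listed and 1.99% called. The lists were drawn up with earlier results of these data known. Besides FKBP5, CDKN1A, the cell cycle inhibitor p21, rose by 1.52 ± 0.45, and was high in goats 11, 12 and 18 at 2086, 1629 and 1121 normalized counts while controls reached 484.7. FOXO1, the transcription factor of fasting and atrophy programmes, had 1215 to 5460 normalized counts after 180 min with a median of 2835, against 934.6 to 2425 with a median of 1460 in controls, and rose by 0.95 ± 0.25. CRISPLD2, a secreted protein, rose by 0.83 ± 0.21 and was above the control median in all 9 goats. The remaining pair, named after values were seen, were KLF15, a regulator of amino acid and lipid use in muscle (1.18 ± 0.37), and GLUL, the glutamine synthetase (1.14 ± 0.33). KLF15 reached 610.8 after transport against 174.5 in controls, but goat 13, at 64.26, was below every control. GLUL had 13090 to 53940 normalized counts after 180 min and 6831 to 11760 in 8 controls, with control goat 7 apart at 30670. TSC22D3, the anti-inflammatory mediator GILZ, had a log2 change of 0.79 ± 0.24 and ZBTB16 one of 0.93 ± 0.37, and neither passed the authors' adjusted p (0.056 and 0.19). SGK1, another classical target, was listed lower at -0.79 ± 0.25 and did not pass (0.07).

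Clock genes were listed mostly higher. Of 23 searched for, 6 were listed, 5 higher and 1 lower, with a median log2 change of 0.57. USP2 and CRY1 rose and NR1D1 fell. USP2, a deubiquitinase with a clock-driven isoform, had 2685 to 7119 normalized counts after 180 min and 1904 to 3166 in controls, a log2 change of 0.77 ± 0.18. CRY1, a repressor of CLOCK and BMAL1, rose by 0.72 ± 0.18, with 8 of 9 transported goats above every control and goat 11 highest at 1231. NR1D1, the nuclear receptor REV-ERB alpha that represses BMAL1 transcription, ranged from 232.6 to 717.4 after 180 min and from 401.0 to 1037 in controls, and fell by 0.78 ± 0.21 on the log2 scale. The labels used here give no clock time of sampling, so the part of the hour in these changes was not tested. Of 27 immediate early genes 6 were listed, and FOSL2, a subunit of the AP-1 factor, was the called one, with a rise of 1.25 ± 0.35. EGR1 (-1.50 ± 0.57), FOSB (-1.69 ± 0.77) and NR4A2 (-1.82 ± 0.78) were listed lower and did not pass, with authors' adjusted p of 0.18, 0.31 and 0.24.

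SLC7A8 and SLC16A6, both transporters, were among the 12 largest rises. SLC7A8, the light chain LAT2 that carries neutral amino acids, rose by 2.07 ± 0.58, and this rested in part on goat 11, at 2761 normalized counts against a median of 351.9; without goat 11 the log2 change was 1.32. SLC3A2, the heavy chain that LAT2 pairs with, rose by 0.73 ± 0.19, with 7 of 9 goats above every control. SLC16A6, a monocarboxylate transporter linked to ketone body export in zebrafish liver, rose by 2.32 ± 0.54, with values of 320.8 to 853.9 in goats 11, 12, 13, 14, 17 and 18 and 39.54 to 164.0 in goats 10, 15 and 16, against 16.46 to 228.4 in controls. PANK1, the pantothenate kinase that starts coenzyme A synthesis, ranged from 84.21 to 781.6 after 180 min and from 43.28 to 323.1 in controls, and rose by 1.72 ± 0.42.

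Lipid genes moved in both directions. LIPG, the endothelial lipase that cleaves phospholipids of high-density lipoprotein (chromosome 24, 49368520 to 49422243), averaged 321.0 ± 156.3 normalized counts after 180 min and 86.09 ± 41.64 in controls (SD, n = 9 each), a log2 change of 1.90 ± 0.34; goats 13 and 14, at 130.2 and 89.55, overlapped the controls. In the same list of 30 cholesterol and lipid ester genes, NPC2, the lysosomal cholesterol carrier, fell by 0.43 ± 0.12 and SQLE, the squalene epoxidase of cholesterol synthesis, by 0.87 ± 0.25 on the log2 scale. SQLE had low counts, at most 33.61 normalized counts after 180 min and 52.53 in controls. Of 60 genes of fatty acid uptake, storage and oxidation 8 were listed, and DGAT2, which makes triglyceride, was the called one. DGAT2 ranged from 331.3 to 1013 after 180 min and from 732.4 to 1520 in controls, with 8 of 9 transported goats below every control, and fell by 0.86 ± 0.20. Of 41 glycolytic genes PFKFB2, which makes the activator of phosphofructokinase, fell by 0.94 ± 0.28, while the isoform PFKFB4 was listed higher at 1.08 ± 0.34 with an authors' adjusted p of 0.051.

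Few genes of protein handling passed. The chaperone, proteasome and translation lists had shares listed near the 13.3% of all genes adjusted, so their listed counts do not set them apart. Heat shock and chaperone genes had 7 of 49 listed, 6 of them higher, and BAG2 was the called one. HSPB1, the small heat shock protein HSP27, was at 0.63 ± 0.27 with an authors' adjusted p of 0.23. All 6 listed of 38 proteasome subunits were higher, with a median log2 change of 0.28, and none was called; the inducible subunits PSMB8 (-0.60 ± 0.24) and PSMB9 (-0.55 ± 0.24), counted here with the interferon genes, were listed lower and not called. All 6 listed of 44 translation factors were higher, and EIF4A1, the RNA helicase of cap-binding complexes (0.61 ± 0.15), and EIF2B4, a subunit of the exchange factor for eIF2 (0.30 ± 0.09), rose. TRIM63, the muscle ubiquitin ligase MuRF1, had 1131 to 12390 normalized counts after 180 min with a median of 3151, against 791.4 to 4932 with a median of 1573 in controls. Its log2 change was 1.17 ± 0.44 and it did not pass, with an authors' adjusted p of 0.12. Of 21 calpains, caspases and inhibitors CAPN5, a calpain, fell by 0.94 ± 0.24 on the log2 scale, named after its values were seen. BNIP3, a receptor for removal of mitochondria, rose by 0.67 ± 0.17, in the lists of autophagy and of hypoxia genes alike. Of 31 oxidative stress and metallothionein genes 6 were listed, 4 of them higher, with a median log2 change of 0.75. The called one, CAT, the catalase that breaks down hydrogen peroxide, went the other way. It fell by 0.45 ± 0.12, with 2509 to 3727 normalized counts after 180 min and 3082 to 5814 in controls. Of 35 genes of the unfolded protein and integrated stress response 4 were listed, with SLC3A2 called. Of 36 ubiquitin ligase and atrophy genes 2 were listed, of 98 mitochondrial ribosome and import genes 3, of 30 glycogen genes 3 and of 59 calcium handling and channel genes 2, with none called. Of 58 nuclear oxidative phosphorylation genes and 82 cytosolic ribosomal protein genes none was listed.

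Of 23 slow fibre genes searched for, 13 were listed, all lower, with a median log2 change of -0.77 beside -0.30 over all listed genes, and LGI1, MYH7 and TPM3 fell. Over all genes adjusted, 13.3% were listed and 0.939% fell. The list was drawn up with earlier results of these data known, so its shared direction is a description and no test. MYH7, the slow myosin heavy chain (chromosome 10, 79930386 to 79950357), averaged 152300 ± 37980 normalized counts after 180 min and 237700 ± 57190 in controls (SD, n = 9 each), a log2 change of -0.64 ± 0.20 (edgeR adjusted p = 0.023). Transported goats ran from 109900 to 204300 and controls from 143100 to 322900, and 4 transported goats lay below every control. TPM3, the slow tropomyosin, fell by 0.72 ± 0.21 on the log2 scale. LGI1, a secreted protein, fell by 1.48 ± 0.40 at low counts, 6.106 to 38.82 after 180 min and 12.13 to 104.7 in controls. MYL2 (-0.89 ± 0.28), TNNT1 (-0.78 ± 0.25) and MYL3 (-2.76 ± 0.90), slow or cardiac light chains and troponin T, were listed lower and did not pass, with authors' adjusted p of 0.053, 0.056 and 0.053. The summed normalized counts of the 13 genes were 271800 to 631100 after 180 min with a median of 409400, against 398000 to 1153000 with a median of 704000 in controls, of which goat 7 was highest and goat 4 lowest. The 7 slow fibre markers with a symbol in the goat RefSeq table are all among these 13 genes, so they are no separate check. All 7 were listed lower and MYH7 alone was called. MB, myoglobin, also planned as a marker, was not listed under that symbol. Of 9 fast fibre markers MYH2 alone was listed, at 0.42 ± 0.22 with an authors' adjusted p of 0.32. The part of fibre type makeup of the sampled piece was not tested.

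Among other muscle genes, MYF6, the myogenic factor of mature fibres (chromosome 5, 10060911 to 10063355), had 3603 to 10210 normalized counts after 180 min and 1914 to 4798 in controls, and rose by 1.01 ± 0.23. KY, a muscle protease-like protein whose loss in mice causes kyphoscoliosis, fell by 1.92 ± 0.45 on the log2 scale, and had 28.56 to 324.7 normalized counts after 180 min and 116.9 to 865.5 in controls. MYLK3, a myosin light chain kinase best known from heart, fell by 1.08 ± 0.29. KIAA0408 fell by 1.31 ± 0.27, with 7 of 9 transported goats below every control.

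**Figure D2:**
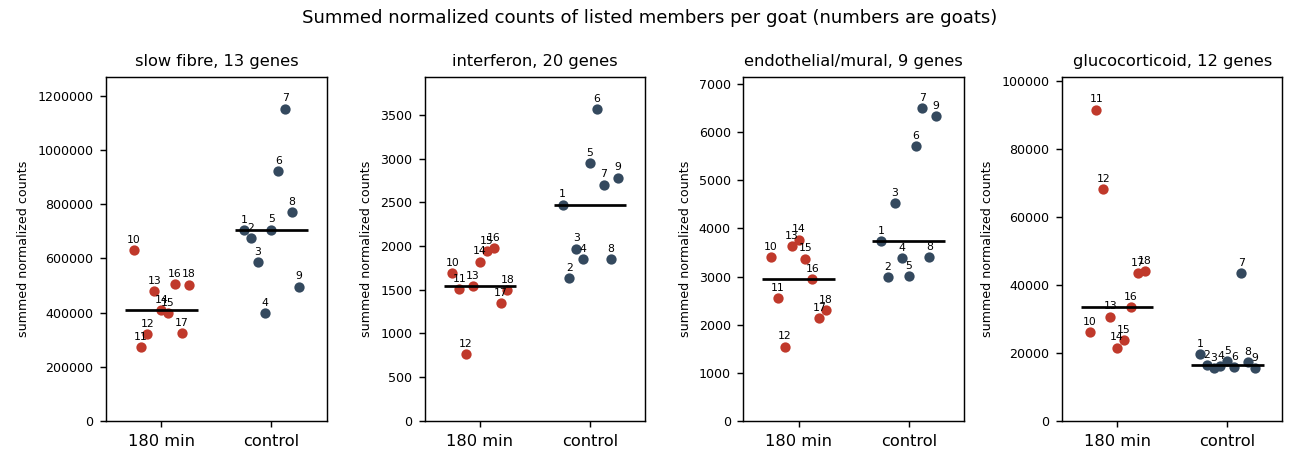
Summed normalized counts of the listed members of 4 gene groups in each goat, 180 min left and control right; numbers are goats and lines are medians. The slow fibre, interferon and endothelial sums have lower medians after 180 min (409400, 1537 and 2949 normalized counts, against 704000, 2474 and 3736 in controls), and the glucocorticoid sum a higher one (33400, against 16380).

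Interferon-stimulated genes, which encode antiviral sensors and effectors, were listed lower without exception. Of 43 searched for, 20 were listed, all lower, with a median log2 change of -0.69, and 6 fell. Over all genes adjusted, 13.3% were listed and 0.939% fell. DHX58, the RNA sensor LGP2, fell by 1.11 ± 0.29 and IFIT1, which binds viral RNA, by 1.04 ± 0.29 on the log2 scale. PARP14, an ADP-ribosyltransferase, fell by 0.78 ± 0.21 and IFI44L by 0.85 ± 0.24; LGALS3BP (-0.81 ± 0.24) and DTX3L (-0.46 ± 0.13), the ubiquitin ligase partner of PARP9, were the others, named after values were seen. Counts were low, with IFIT1 at 12.18 to 62.57 normalized counts after 180 min and 40.03 to 142.2 in controls, so counting error is a larger part of these values. The summed counts of the 20 genes were 761.3 to 1977 after 180 min, lowest in goat 12, and 1633 to 3568 in controls, highest in goat 6. When goat 9 was counted as transported, 1 of these 6 calls was left: DHX58, IFIT1, PARP14 and IFI44L were among those that no longer passed edgeR, with adjusted p of 0.0665, 0.0524, 0.0886 and 0.102. IL15, a cytokine that muscle secretes, fell by 0.72 ± 0.19, with 16.48 to 33.89 after 180 min and 27.05 to 53.16 in controls; of 59 cytokine, chemokine and NF-kB genes 11 were listed, 6 higher and 5 lower.

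The named falls included 3 genes of endothelium. PLXND1, a semaphorin receptor of endothelium, fell by 1.01 ± 0.29, PCDH12, a protocadherin of endothelial junctions, by 1.16 ± 0.35, and BCL6B, a transcriptional repressor enriched in endothelium, by 1.07 ± 0.28 on the log2 scale. BCL6B ranged from 105.1 to 294.4 normalized counts after 180 min and from 166.6 to 706.2 in controls. P2RY2, the receptor for extracellular ATP and UTP, fell by 1.08 ± 0.25, and PLK2, a stress-induced polo-like kinase, by 1.20 ± 0.33, with 164.9 to 483.7 after 180 min and 202.3 to 1687 in controls. STAP2, a signalling adaptor, fell by 1.04 ± 0.30. Beside these, 9 of 25 endothelial and mural markers were listed, all lower and none called, CDH5 at -0.78 ± 0.23 and KDR at -0.74 ± 0.25 among them. The markers' summed counts ran from 1546 to 3769 after 180 min and from 2989 to 6493 in controls; their part in the falls of PLXND1, PCDH12 and BCL6B was not tested. PLXND1, PCDH12 and PLK2 no longer passed edgeR with goat 9 counted as transported, at adjusted p of 0.106, 0.0723 and 0.0528.

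Markers of other cells gave few listed genes. Of 16 macrophage and myeloid markers CD163, the haemoglobin scavenger receptor that glucocorticoids induce in macrophages, rose by 1.53 ± 0.38, with 29.43 to 169.2 normalized counts after 180 min and 10.39 to 87.25 in controls, and S100A12 was listed higher without passing. None of 14 lymphocyte, 10 fibroblast or 6 satellite cell markers was listed. Of 109 collagen and matrix genes 13 were listed, near the 13.3% of all genes adjusted. FBN2, a fibrillin, was the called one, at 1.81 ± 0.43 and at low counts of 2.673 to 28.56 after 180 min and 0.8574 to 13.53 in controls. Of 13 mitochondrially encoded genes 4 were listed, all lower and none called; COX1 was at -1.17 ± 0.42 with an authors' adjusted p of 0.23. Their summed counts ran from 18310 to 98200 after 180 min and from 25820 to 178800 in controls, highest in goats 14 and 7.

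**Figure D3:**
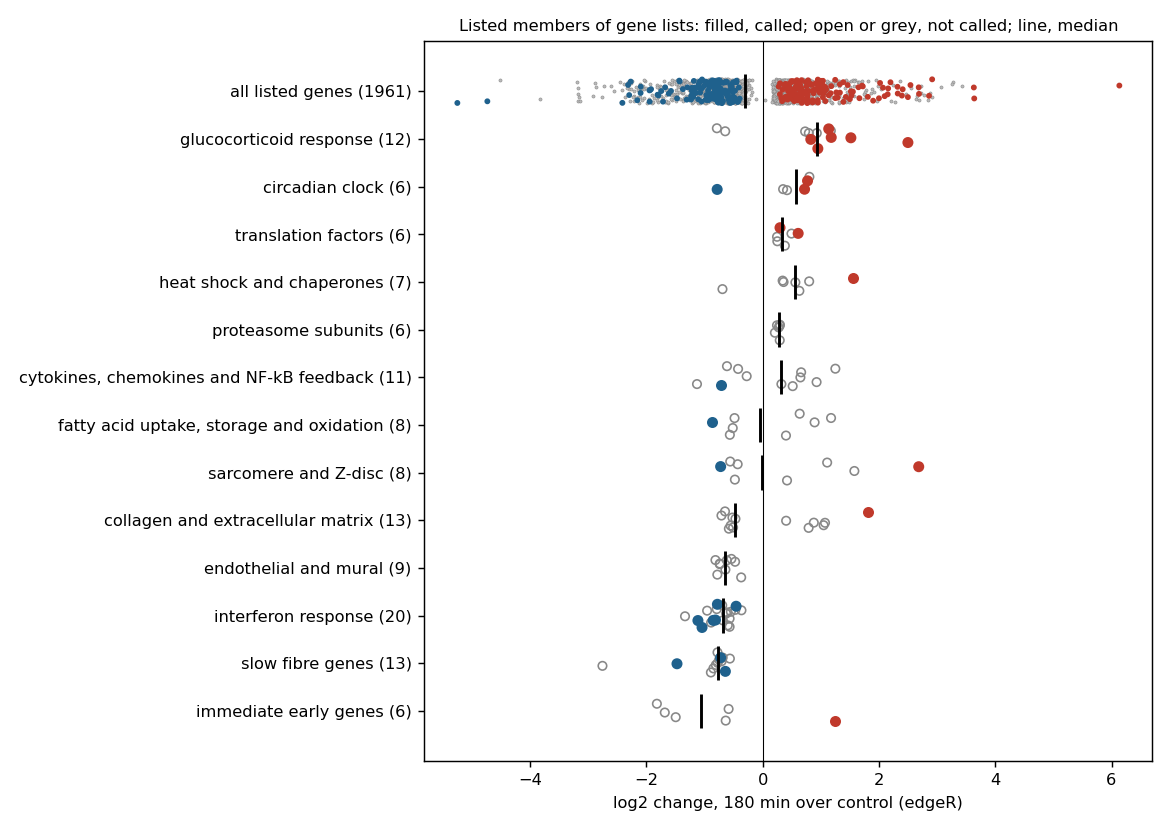
Log2 change (180 min over control, edgeR) of listed genes, for all 1961 and for 13 gene groups with the number listed in parentheses; filled points are called, red higher and blue lower, open or grey points are not called, and bars are medians. All 20 interferon, 13 slow fibre and 9 endothelial and mural genes lie below 0, while 10 of 12 glucocorticoid genes lie above it.

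A pair of large changes rested on few goats. ASIP, the agouti protein that blocks the melanocortin receptor (chromosome 13, 63244165 to 63249361), had the largest fall of a called gene, -5.25 ± 1.37 on the log2 scale. Its normalized counts were 3.567 to 17.68 in 8 transported goats and 143.0 in goat 14, against 2308, 2392 and 2752 in control goats 2, 5 and 7 and 2.879 to 23.35 in the other 6 controls. In the 6D set, which carries the same goat numbers, control goats 2, 5 and 7 again held 2169, 2139 and 1945 normalized counts and the other 6 controls 3.144 to 22.01, while transported goats held 2.248 to 54.01. ACTC1, the cardiac alpha actin that is also made in immature fibres (chromosome 10, 72761736 to 72767207), had the largest rise among called genes that averaged 100 or more normalized counts, 2.68 ± 0.76. Goats 18, 10 and 15 held 17870, 5236 and 3568, the other 6 transported goats 243.1 to 736.2, and controls 143.4 to 1027. Without goat 18 the log2 change of ACTC1 was 1.51. With limma neither gene passed the threshold within the list, at adjusted p of 0.078 for ASIP and 0.0655 for ACTC1.

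The transported goats differed in how many of the called genes they carried beyond the control range, as a description of genes chosen on the same groups. Goat 12 lay above every control in 92.6% of the 148 risen genes and below every control in 84.8% of the 132 fallen ones. Goats 18 and 11 followed for risen genes, at 84.5 and 81.8%. Goat 13 had the lowest shares, 37.2 and 37.9%, and goats 15 and 14 had 45.9 and 49.3% of the risen genes. In 80 risen genes all 9 goats were above the control median, and in 99 fallen genes all 9 were below it. Risen genes had a median length of 1981.5 bases and a median control level of 7.63 FPKM, and fallen genes 2919.5 bases and 3.35 FPKM, beside 2262 bases and 4.07 FPKM over all listed genes.

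**Figure D4:**
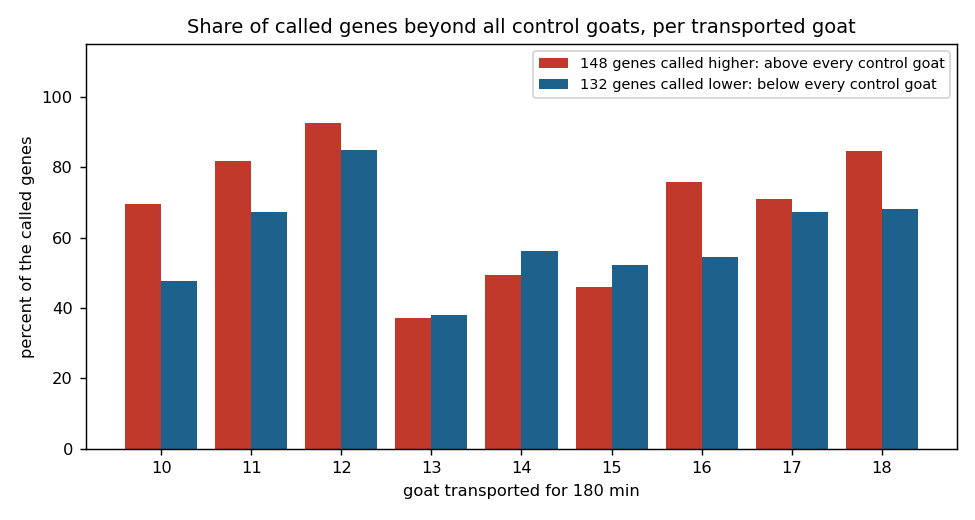
Percent of the 148 risen genes above every control goat (red, left bar) and of the 132 fallen genes below every control goat (blue, right bar) in each goat transported for 180 min. Goat 12 has the tallest bars, 92.6 and 84.8%, and goat 13 the shortest, 37.2 and 37.9%.

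FKBP5 was set against the other 11 largest rises within the 9 transported goats, as log2 of the normalized counts plus 1, with exact permutation tests, two-sided and adjusted over the 11 relations. PANK1 followed FKBP5, with Pearson r = 0.899 (exact permutation p = 0.00141, adjusted 0.0155) and Spearman rho = 0.867 (exact permutation p = 0.00451, adjusted 0.0496); without the 2 goats farthest from the median of FKBP5, r was 0.794. SLC7A8 gave r = 0.821 (exact permutation, adjusted p = 0.0348) and rho = 0.75 (exact permutation, adjusted p = 0.14), and r = 0.748 without those 2 goats. The 2 goats left out were 14 and 10, the lowest for FKBP5. Goat 11, the highest for SLC7A8, stayed in, so its weight in that relation was not tested. No other relation passed after adjustment. The 11 partners were chosen as large rises in these same goats. Whether PANK1 follows FKBP5 more closely than risen genes in general do was not tested. CDKN1A (r = 0.711) and SLC16A6 (r = 0.653) had exact permutation adjusted p of 0.143 and 0.166, and LIPG, PITX3, ELL2 and ACTC1 had r between -0.162 and 0.181.

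The authors' deposited tables for 30 min of transport in the same set and for 180 min in the 6D set give a value for many of these genes. The 30 min table uses the same control libraries and the 6D table the same goat numbers, so neither is an independent repeat. An authors' adjusted p under 0.05 was held by 12.1% of the genes adjusted for 30 min and by 0.827% of those adjusted for 6D. FKBP5 had log2 changes of 1.55 at 30 min and 2.05 at 180 min in 6D in the authors' deposited tables, and in the 30 min goats its normalized counts ran from 1069 to 2474, all 9 above every control. LIPG had 1.98 and 2.00, ELL2 1.49 and 1.28, and HBEGF -0.80 and -0.99 in the authors' deposited tables, each with an adjusted p under 0.05. BAG2 had 0.53 (adjusted p = 0.0698) and 1.57 (3.47e-05), PKDCC 0.43 (0.0682) and 1.30 (0.000241), and PITX3 1.08 (0.0713) and 1.99 (1.23e-05) in the authors' deposited tables. KIAA0408 and KY were not listed at 30 min and stood at -1.57 and -1.64 in 6D, and NR1D1, likewise not listed at 30 min, at -1.12, all from the authors' deposited table. DHX58, MYH7 and MYLK3 were listed in neither of the authors' deposited tables, and IFI44L stood at -0.68 (adjusted p = 0.0217) and -0.56 (0.404). Several other slow fibre, endothelial and interferon genes passed as lower at 30 min in the authors' deposited table. Among them were TNNT1 (-0.86, adjusted p = 0.0422), PLXND1 (-0.98, 0.0167), PCDH12 (-1.16, 0.0217), KDR (-0.73, 0.0297) and PSMB9 (-1.16, 0.00197). MYL2 (-0.88, 0.0572) and CDH5 (-0.52, 0.084) did not pass there. In 6D TNNT1, PCDH12 and KDR were not listed, and PLXND1 and PSMB9 did not pass. Absence from a list says only that no unadjusted p under 0.05 was given there.

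**Figure D5:**
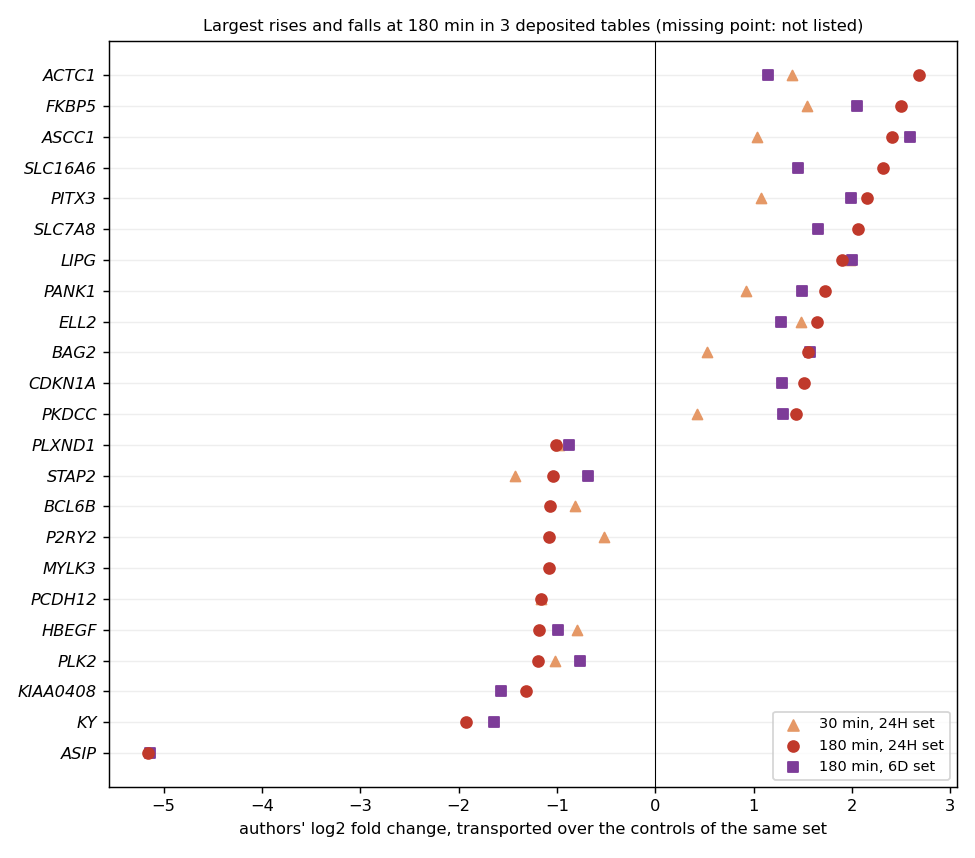
Authors' log2 fold change of the 12 largest named rises and 11 of the largest named falls, transported over the controls of the same set, for 30 min in 24H (triangles), 180 min in 24H (circles) and 180 min in 6D (squares); a missing point is a gene not listed. FKBP5 lies at 1.55, 2.50 and 2.05 and ASIP near -5 at 180 min in both sets with no point at 30 min.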

How the data were processed

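Per the labels' protocols, the muscle RNA came from an RNeasy Fibrous Tissue kit and a NEBNext Ultra RNA kit made the libraries. Aligner, counter, strand setting, build and annotation: not given in the sources used here. Coordinates therefore carry no build, and reads of near-identical genes (actins, myosins, interferon families, mitochondrial copies) or overlapping genes could be assigned uncertainly. Per the file headers the authors deposited raw counts for each gene. The deposited normalized counts are a signal, counts divided by 1 size factor per library, as checked on the values. The deposited FPKM values are scaled by gene length and library total. The log2 fold change, p-value and adjusted p-value are the authors' own, as deposited. Inverting the Benjamini-Hochberg formula gave 14056 adjusted genes and matched 1872 of 1874 adjusted p-values to a relative tolerance of 1e-06; 87 listed genes with an adjusted p of 1 were taken as not adjusted.

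Raw counts of the 1961 listed genes were tested with edgeR 4.0.16 (quasi-likelihood, no covariates, library totals with the authors' size factors), adjusted by Benjamini-Hochberg within the list at 0.05. The dispersions come from selected genes, so this p describes the list and is no independent test. SE is the size of the log2 change divided by the square root of F. The edgeR steps were also run on simulated counts with a fixed dispersion and most genes unchanged. The real list was selected on this contrast, so that run does not measure error in it. The authors' adjusted p of 282 genes was under 0.05, 2.01% of those adjusted, and PSAT1 and RNF115 were then not past edgeR. The genes in 3 cases had opposite signs in the 2 sources. No libraries were identical, and the highest pairwise correlation of log2 counts was 0.9719.

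Named genes were the 12 largest called rises and 12 largest called falls with mean normalized counts of 100 or more, up to 4 called members per direction of each list with at least 3 listed members, 27 genes fixed by name (7 listed, 3 called), and called genes of that level whose groups do not overlap. The members and lists were chosen with earlier results of these data known. DESeq2 1.42.0, limma 3.58.1 (log2 of normalized counts plus 1), other scalings, a minimum mean of 50, another grouping of goat 9 and leaving out each goat were the alternatives. The scripts ran in Python 3.11.15 (pandas 2.3.3, scipy 1.17.1, matplotlib 3.10.9, numpy 2.4.6) and R 4.3.3. A planned search of promoters for motifs was not run, and sequences are not used here. Some genes that the rule names are not reported here. No identifier without a symbol was matched to RefSeq.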

Additional observations from a re-analysis of the deposited data

Results flagged for a closer look

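A goat stood apart from the other 8 of its group, by Dixon's ratio for 9 values (above 0.493 on the log2 scale), in 7 of the 110 groups tested; chance gives about 1 in 20. Among transported goats, goat 14 was highest for ASIP at 143.0 normalized counts (next 17.68) and lowest for FBN2 at 2.673 (next 11.45). Goat 12 was lowest for PARP14 at 23.6 (next 57.08) and goat 11 highest for CRY1 at 1231 (next 631.9). Among control goats, goat 8 was lowest for LGI1 at 12.13 (next 36.46) and for SLC7A8 at 28.58 (next 110.4), and goat 1 was highest for PFKFB2 at 464.4 (next 215.6).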

How the results depend on the processing

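None of the 62 gene results followed through the alternatives changed direction in those run. Leaving out each goat gave 147 to 149 risen and 132 to 133 fallen genes, with the authors' adjusted p kept as deposited; genes past edgeR within the list were 1538, and 713 to 1530 with a goat left out. That count moved most without transported goats 11 (999), 12 (713) or 18 (835) and without control goats 1 (857), 3 (994), 6 (735) or 9 (1002). With goat 9 counted as transported, 471 genes were past edgeR, and CAT and NPC2 also lost the call (adjusted p = 0.0581 and 0.0726). Adjusted over all 14056 genes, edgeR left 17 risen, 7 fallen and 24 in all, and 46 of the 62 gene results lost the call. The 62 include TSC22D3, ZBTB16, TRIM63 and HSPB1, which held no call to lose. Chosen after the data were seen, the same adjustment gave 272 genes past DESeq2, and with limma 17 risen and 11 fallen, 28 in all. With limma within the list KLF15 also lost the call (adjusted p = 0.0643). Other scalings shifted the difference between groups in the mean log2 scaling factor by less than 0.05 and changed no named call. With DESeq2, 9 listed genes, none named, had no p. No paired analysis was possible because the groups share no goat number. Low counts limit SQLE, FBN2 and the interferon genes.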
